A study of Mus musculus with 2 samples.

Results

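The array holds 16194 probes that carry no gene name and are named instead by an interval of the mouse genome (build mm9), nearly always with a suffix F or R. Of these, 612 probes, from 399 intervals, are described here because their signal was at least 2-fold lower on the HES1 array than on the GFP array. They were chosen by 2 values: the processed signal scaled to each array's 75th percentile, and the scanner's flag for a spot well above background, which had to be set on at least 1 array. A probe with that flag is called seen below. The 612 members are therefore a selection on the signal difference itself, and their fold differences are a description, with no test.

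The samples were 2 stable lines of ATDC5, a mouse chondrocyte cell line, into which a gene had been carried by a lentivirus. Per the labels, the control line overexpressed the fluorescent protein GFP and the second line overexpressed HES1. Both were grown for 3 days as monolayers on 60 mm dishes, and Cy3-labelled material from 0.1 µg of total RNA of each line went onto 1 array. There was 1 array per group and no replicate, so no p-value is given, and the difference between the lines cannot be told apart from the difference between the 2 dishes, RNAs or array positions. In such bulk RNA, fewer cells of a type and less RNA per cell cannot be told apart either.

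HES1 is a basic helix-loop-helix protein of the Notch pathway that represses transcription. Probes of this kind are made for stretches of the genome between annotated genes, where chromatin marks or sequenced RNA pointed to long noncoding transcripts. Such transcripts can lie on either strand, which is why an interval may have probes with both suffixes. The files do not say which suffix is the strand of the transcript, so F and R are used as names only. Neighbouring genes of the intervals were not determined here, and no probe sequences are shown.

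Few facts of the whole series bear on these probes. Neither array saw the probe for Hes1 (scaled signal 10.2 with GFP, 10.3 with HES1), so it checks neither label, and the arrays are named by their labels. The chondrocyte marker list had 8 of 10 genes seen, among them Col2a1, the chief cartilage collagen, at 13796 and 7379, and Sox9, the master regulator of chondrocytes, at 3683 and 3227. Matn3 and Hapln1, both cartilage matrix genes, were not seen. The seen chondrocyte genes had a median log2 difference (HES1 minus GFP) of -0.63, and the list's summed signals were 54919 with GFP and 43925 with HES1. By measured signal 1 of the 8 was at least 2-fold lower: Sox6, a partner of Sox9, at 57.7 and 28.1. Sox6 was seen on the GFP array only, and against the lowest signal seen on the HES1 array it was at least 1.48-fold lower, short of 2-fold. Of the osteoblast markers on the array, 4 of 4 were seen and 2 were at least 2-fold lower on the HES1 array, with summed signals of 15233 with GFP and 8011 with HES1. The adipocyte list had 2 of 4 genes seen, with summed signals of 266 and 151, and 1 of them was at least 2-fold lower. The blood cell list (3 of 5 seen, summed signals 2562 and 2618) and the endothelial list (2 of 4 seen, 8558 and 8888) had no gene past 2-fold. Most of the larger sums came from single genes. With GFP and HES1 these were Sox5 for chondrocytes (34961 and 31887) and Alpl for osteoblasts (12365 and 6940). For blood cells it was Csf1r (1978 and 2030) and for endothelium Kdr (8354 and 8691). The part of any of these lists in the members' differences was not tested.

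Of the position-named probes 7236 of 16194 (44.7%) were seen, and of the other probes 25319 of 39482 (64.1%). Among the seen position-named probes, 8.46% were at least 2-fold lower on the HES1 array (the members) and 9.23% were at least 2-fold higher (668 probes). Among probes not named by position, 5.53% were lower and 9.9% higher, and over all seen probes the shares were 6.18% and 9.75%. When only probes seen on both arrays were counted, the lower share was 5.33% of position-named probes (309 of 5801) and 4.48% of the others. The median log2 difference (HES1 minus GFP) was -0.07 for seen position-named probes and -0.10 for the others. The balance of lower to higher position-named probes moved with the scaling. Against 612 lower and 668 higher (47.8% lower), quantile normalization gave 802 and 562 (58.8% lower), and scaling on the median, taken over probes that both arrays saw, gave 456 and 757 (37.6%). A normexp background correction followed by quantile normalization gave 89 and 207 (30.1%) and kept 88 of the 612 members past 2-fold. Of the 129 members with a GFP signal over 500, 73 stayed past 2-fold under normexp, and of the 242 with a GFP signal under 100, 0 did. Normexp was run with an offset of 50 added to every unscaled signal, which shrinks the folds of dim probes. A probe with a GFP signal under 100 could therefore hardly pass 2-fold, so its loss says little about that probe. The same holds for dim members in the normexp counts below. Members with a GFP signal over 500 fell short as well, and no other offset was run. How much of the loss the offset makes was therefore not tested.

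Most members were only moderately lower, and their GFP signals were about those of all seen position-named probes. They ran from 40.8 to 133066 with a median of 135 (136 for all seen), and their HES1 signals from 7.82 to 65331 with a median of 47.1. The median member was 2.49-fold lower (log2 difference -1.31, quartiles -1.72 and -1.11). In all, 309 members were seen on both arrays and 303 on the GFP array only, while 0 were seen on the HES1 array only. That 0 is nearly set by the selection and is no finding. Members are by choice at least 2-fold brighter with GFP, and the lowest seen signals were similar, 38.1 (GFP) and 39.0 (HES1). The 303 entered by the flag of their brighter array alone. For a probe seen on the GFP array only, the HES1 signal has no reliable level, so its fold is given as a bound: the GFP signal over the higher of the probe's own HES1 signal and the lowest signal seen on the HES1 array (39.0). With bounds in place of measured values, 448 of the 612 members remained at least 2-fold lower. The scanner's error model gave the members' log2 differences a median error of 0.37, and 0.23 for those seen on both arrays. That error covers the spot measurement alone, and 243 members lay beyond 2-fold by more than it.

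Large folds were rare among members measured on both arrays. Of 185 members at least 3-fold lower, 43 were seen on both arrays; of 103 at least 4-fold lower, 8 were. All 40 members at least 8-fold lower by measured signal were seen on the GFP array only, and 10 of them kept an 8-fold difference by bound. At the threshold itself the members passed gradually into the rest. The 3 members just inside had log2 differences of -1.0001, -1.0006 and -1.0006, and the 3 probes just outside had -0.9995, -0.9990 and -0.9976.

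**Figure D1:**
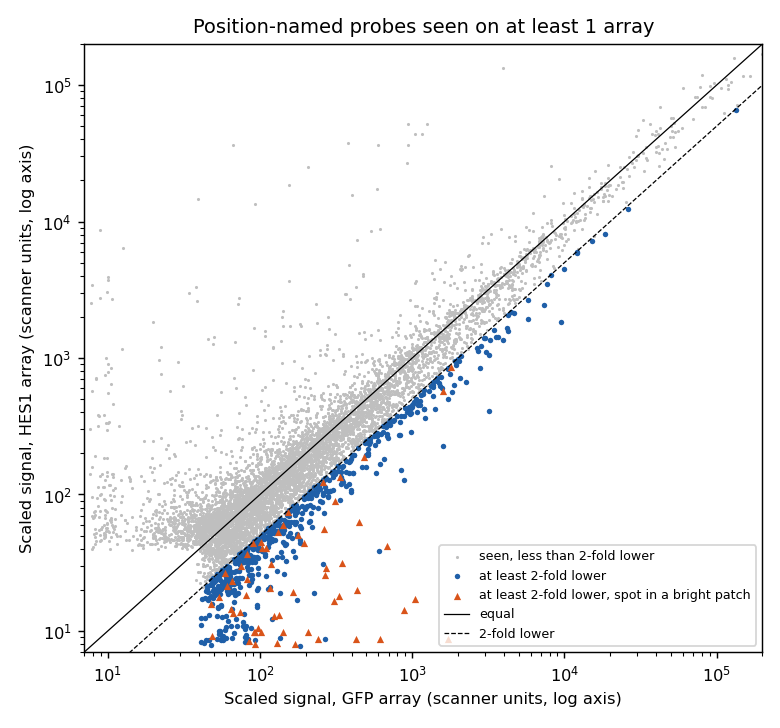
Scaled signal of the 7236 seen position-named probes on the GFP array (horizontal) and the HES1 array (vertical), in scanner units on log axes, with 1 point per probe. Blue points and orange triangles are the 612 members, and most lie close under the dashed 2-fold line. The points farthest below it are near the HES1 array's floor and include many of the 58 members whose spots lie in bright patches, as defined in the text.

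The members with the lowest values were often neighbours on the glass. A spot was called part of a bright patch when at least 2 of the other 24 spots in the 5 by 5 block around it were at least 4-fold brighter on the GFP array. The rule uses only the ratio of the 2 arrays, so such a patch may be brighter on the GFP array or dimmer on the HES1 array. This definition was chosen after seeing the data. A minimum of 3 neighbours was tried first and was lowered to 2 after seeing which of the lowest members each marked. Over all spots 0.66% were at least 4-fold lower on the HES1 array, and how many spots would pass the rule through scattered ones alone was not determined. The rule with 2 marked 1130 of 59305 spots (1.91%), 177 of the seen position-named probes (2.45%) and 58 members (9.48%). It marked 8 of the 10 members with the lowest measured values, 26 of the 40 that were at least 8-fold lower and 12 of the 14 that were at least 16-fold lower. With the minimum of 3 it marked 386 spots and 26 members, again with 8 of the 10 lowest, and 18 of the 40. The largest patch spanned rows 13 to 31 and columns 81 to 89 of the 384 by 164 array. It held 13 members, 7 of them among the 10 lowest. The rule looks at a spot's neighbours and not at the spot itself, and the median log2 difference over the 131 spots of this patch was -0.36. The same rule in the other direction, for spots at least 4-fold brighter on the HES1 array, marked 9871 of the 59305 spots, dim spots included. That is far more than the 1130 marked in the members' direction. With the minimum of 3 the counts were 2393 and 386. Why the 2 directions differ was not tested.

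Members inside and outside patches differed in how far the other probes of their own interval and suffix followed them. Outside patches, 488 members had another seen probe of the same interval and suffix, and for 307 of them (62.9%) at least 1 of those was also a member. Inside patches this was so for 10 of 40. The other probes' median log2 difference was -0.92 beside members outside patches and -0.23 beside members inside them. Detection differed too: 46 of the 58 patch members were seen on the GFP array only, while 297 of the 554 others were seen on both arrays. Over all members, 45.5% of those seen on the GFP array only had another member beside them, against 71.5% of those seen on both. The patches and the detection were not separated here, and the part of the patches in the members' values was not tested further. Without the 58 patch members, 554 members remained, with a median log2 difference of -1.29.

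**Figure D2:**
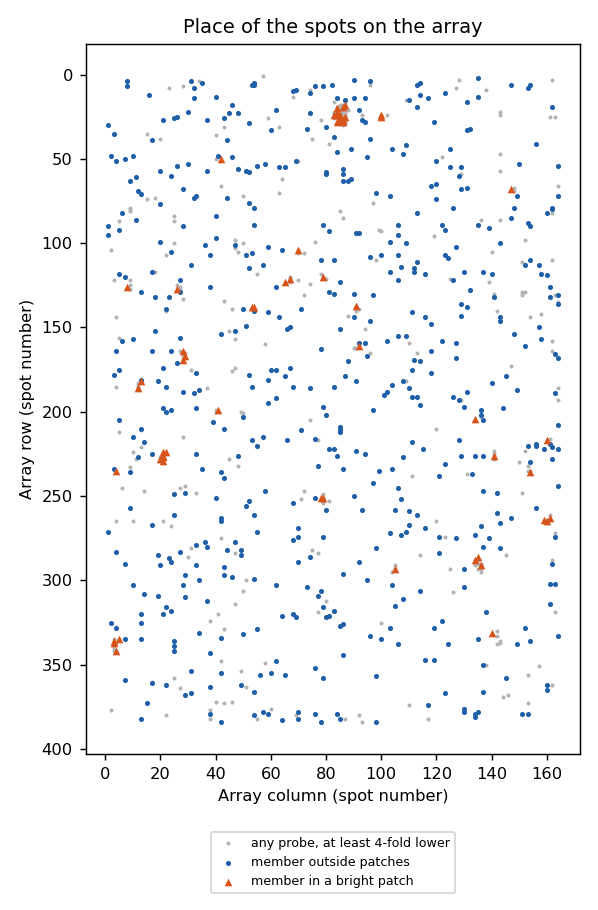
Position on the array (row and column of the spot) of all members, 554 outside bright patches in blue and 58 inside in orange, and of any probe at least 4-fold lower on the HES1 array in grey. Blue points are spread over the whole array, and the densest group of triangles is the patch at rows 13 to 31 and columns 81 to 89.

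Each of the 5 members with the largest bounds lay in such a patch. The probe for chr7:46745641-46755766 with suffix R went from a signal of 1709 (GFP) to 8.80 (HES1), at least 43.9-fold lower. The other probes with that suffix in the interval, 4 in number, were seen on neither array. The probe for chr13:23487906-23488198 (suffix F) went from 1045 to 17.2, at least 26.8-fold lower, while the interval's other F probe measured 64.6 and 45.0. The probe for chr11:22510175-22522025 (suffix F) went from 618 to 8.77, at least 15.8-fold lower. In that interval the other F probes that were seen were not lower on the HES1 array: 1 measured 62.4 and 83.4, and 1 measured 30.6 and 54.2. In the chr13 and chr11 intervals, then, the other seen F probes did not show a 2-fold decrease, while in the chr7 interval no other R probe could be read. A further one, for chr5:104936417-104984892 (suffix F), went from 680 to 41.7, at least 16.3-fold lower, and here the interval's other F probes were lower too, from 118 to 54.6, from 299 to 143 and from 293 to 152.

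Among the 10 lowest members seen on both arrays, 6 came from a single interval, chrX:50400250-50410825. With suffix R its probes had GFP and HES1 signals of 3188 and 410, 1596 and 226, 886 and 128, 849 and 152, and 9425 and 1835. These 5 probes were 5.14- to 7.78-fold lower on the HES1 array, with scanner errors of 0.20 to 0.23 on the log2 scale. The sixth R probe, seen on the GFP array only, measured 66.6 and 44.8 and was no member. A nested interval, chrX:50407969-50410370, had 3 R probes, at 3943 and 1361, 3057 and 1116, and 4279 and 1569, all of them members at 2.73- to 2.90-fold lower. None of these probes had a spot in a bright patch. Under normexp 9 of the 11 members in this locus stayed past 2-fold, and under quantile normalization, scaling on the median and loess all 11 did.

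The probes with suffix F in chrX:50400250-50410825 were less alike. One went from 394 to 104, and another pair, seen on the GFP array only, measured 97.3 and 28.7 (at least 2.50-fold lower) and 83.9 and 31.3 (at least 2.15-fold lower). The other 3 seen F probes measured 443 and 373, 72.1 and 69.9, and 121 and 132. The median difference was thus -2.64 over the 6 seen R probes and -0.84 over the 6 seen F probes. This locus is the one where both suffixes held members and the R probes were the lowest of all members measured on both arrays outside patches.

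Of the other 4 members among those 10, 2 lay in patches. The probe for chr6:117829576-117834247 (suffix F) went from 450 to 62.9, while its interval's other seen F probes measured 105 and 78.5, and 65.0 and 61.8. Under normexp the same probe was higher on the HES1 array, with a log2 difference of 1.37. The probe for chrX:98680220-98718445 (suffix R) went from 263 to 55.7, and its 3 seen neighbours of the same suffix had a median difference of 0.07. The remaining 2 were outside patches. The probe for chr3:95502970-95503399 (suffix R) went from 580 to 144, with the other seen R probe at 43.7 on both arrays. The probe for chr16:90008636-90015586 (suffix R) went from 218 to 58.2, and 3 of the 4 other seen R probes of that interval were members too.

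The brightest members sat close to the threshold. The probe for chr6:116123643-116124550 (suffix F) measured 133066 and 65331, a log2 difference of -1.03, and the 2 other probes of the interval, at 135476 and 72027 and at 112379 and 62026, were just short of 2-fold (-0.91 and -0.86). In chr9:14460976-14488051, 3 of 5 F probes were members (26229 and 12446, 8222 and 4079, and 5728 and 2672), and the other two had differences of -0.99 and -0.91. The single seen F probe of chr14:44284425-44300475 went from 18537 to 8057, while the 5 R probes of that interval had differences between -0.20 and 0.34. In the overlapping pair chr13:60524145-60528559 and chr13:60508775-60534625, R probes went from 15219 to 7183 and from 12108 to 5997. In the chr6 and chr9 intervals all seen probes of the suffix moved by a similar amount, so that the threshold divided a group of probes with nearly equal values.

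Probes of the same interval and suffix were made for the same stretch of the genome, so they are not taken as independent measurements. Whether they read the same transcript was not determined. Of 528 members with another seen probe of the same interval and suffix, 317 (60.0%) had another member there, against 637 of 5363 (11.9%) seen probes that were not members. The share was 71.5% for members seen on both arrays and 45.5% for those seen on the GFP array only. The members fell on 418 combinations of interval and suffix: 295 held 1 member, 70 held 2, 41 held 3, and 12 held more, up to 6. Of the 334 with at least 2 seen probes, 211 held exactly 1 member. In 8 combinations a member stood beside a probe that was at least 2-fold higher on the HES1 array. In 35 of the 1155 combinations with at least 3 seen probes (3.03%), every seen probe was a member, and in 58 every seen probe was at least 2-fold higher. The 35 comprised 23 with suffix R and 12 with suffix F, held 114 members, and had median differences from -2.72 to -1.04. In 17 of them every probe was seen on both arrays, and 4 had a spot in a bright patch. Under normexp, 36 of these 114 members and 5 of the 35 complete combinations stayed past 2-fold.

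Several of these complete intervals gave close values over a wide range of brightness. In chr17:34018371-34019394 (suffix R) the 3 probes went from 3198 to 1051, from 5784 to 1921 and from 7297 to 2466, differences of -1.60, -1.59 and -1.56 (probes A_30_P01019819, A_30_P01028287 and A_30_P01023554). In chr10:117021051-117038683 (suffix F) 5 of 5 probes, at 1190 to 2248 with GFP and 360 to 668 with HES1, had differences from -1.75 to -1.48. In chr10:83980790-83986015 (suffix R) 5 of 5 probes had differences from -1.33 to -1.17, at 339 to 1367 and 135 to 610. In chr15:85510625-85511265 (suffix F) 3 of 3 probes lay between -1.27 and -1.10, at 2725 to 3237 and 1130 to 1400. The lowest median belonged to chr10:39405900-39406539 (suffix R), where 3 probes measured 77.4 to 87.7 with GFP and 10.5 to 22.8 with HES1; all 3 were seen on the GFP array only, and their bounds were 1.99- to 2.25-fold.

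There were 361 members with R and 251 with F, a share of R of 59.0% (exact 95% binomial interval 55.0 to 62.9, which covers counting error only), against 52.0% (50.9 to 53.2) of the seen probes. Put as shares of the seen probes of each suffix, 9.59% of R and 7.24% of F were members, while 9.57% of R and 8.79% of F were at least 2-fold higher. Because members share intervals, these intervals are too narrow. Counted once per interval and suffix, 236 of 1595 seen R combinations (14.8%) and 182 of 1604 F combinations (11.3%) held a member, a share of R of 56.5%. Without the patch members the share of R was 60.8%.

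Both suffixes had probes in 1067 intervals and were seen in 658. Of the 171 of these with a member, 19 (11.1%) had members with both suffixes, 88 with R only and 64 with F only. An F member was present in 17.8% of the intervals with an R member, against 12.6% of all 658. For probes at least 2-fold higher, 28 of 145 intervals (19.3%) had them with both suffixes. In the 152 with members of 1 suffix, the other suffix had a median difference of -0.02 (quartiles -0.28 and 0.28), and it was below 0 in 82. By definition the other suffix held no member there, which keeps its low values out. Over all intervals seen with both suffixes the median was -0.05. Without spots in patches, 14 intervals had members with both suffixes; 7 did when only probes seen on both arrays were counted.

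The intervals with members of both suffixes differed in how alike the suffixes were. In chr9:88333945-88342370 all 3 seen F probes and all 3 seen R probes were members, with median differences of -1.20 and -1.16. In chr6:134875724-134931975 the single seen F probe went from 4220 to 1657 and the single seen R probe from 161 to 47.6. In chr10:66559716-66647841, 4 of 5 F probes and 3 of 7 R probes were members. The measured medians over the seen probes were -2.63 for F and -0.42 for R, but 3 of the F members were seen on the GFP array only, and with bounds the F median was -0.74. In chrX:90997595-91009570, 2 of 4 F and 6 of 10 R probes were members. In chr9:41137539-41353289, by contrast, both members lay in patches (429 and 8.73 for R, 84.1 and 8.49 for F) and the other seen probe of each suffix was no member. The members for chr13:98571741-98603323 comprised an F probe in a patch, at 881 and 14.4, and a dim R probe at 53.3 and 21.3.

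Of all 658 intervals seen with both suffixes, 12.6% held an F probe at least 2-fold higher on the HES1 array and 13.7% held such an R probe. In 17 of the 152 intervals with members of 1 suffix, a member stood beside a probe of the other suffix that was at least 2-fold higher. One was chr17:33995525-34028025. There the R probes A_30_P01018413 and A_30_P01022544 were seen on the HES1 array only, at 17.3 and 248 and at 13.8 and 135 (at least 6.51- and 3.53-fold higher), and the F probe A_30_P01028936 went down from 350 to 124. The 4 other seen F probes had differences between -0.38 and 0.41. The bright R interval chr17:34018371-34019394 named above lies inside this one, so R probes that were higher and R probes that were lower on the HES1 array came from the same stretch. In chr9:118291593-118324230 the F probes A_30_P01021929 and A_30_P01020457 went from 1728 to 499 and from 607 to 38.8 (the latter at least 15.6-fold lower), while the R probe A_30_P01023296 measured 19.7 and 50.3 and was seen on the HES1 array only (at least 1.32-fold higher). In chr11:69106907-69112857, 3 of 4 R probes were members (A_30_P01026986 at 62.8 and 20.8, A_30_P01022765 at 43.6 and 12.5, and A_30_P01025569 at 49.0 and 17.5), and the F probe A_30_P01032802 measured 19.8 and 48.3. Each of these 4 probes was seen on 1 array only, and by bounds the R probes were at least 1.61-, 1.12- and 1.26-fold lower and the F probe at least 1.27-fold higher, all short of 2-fold.

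**Figure D3:**
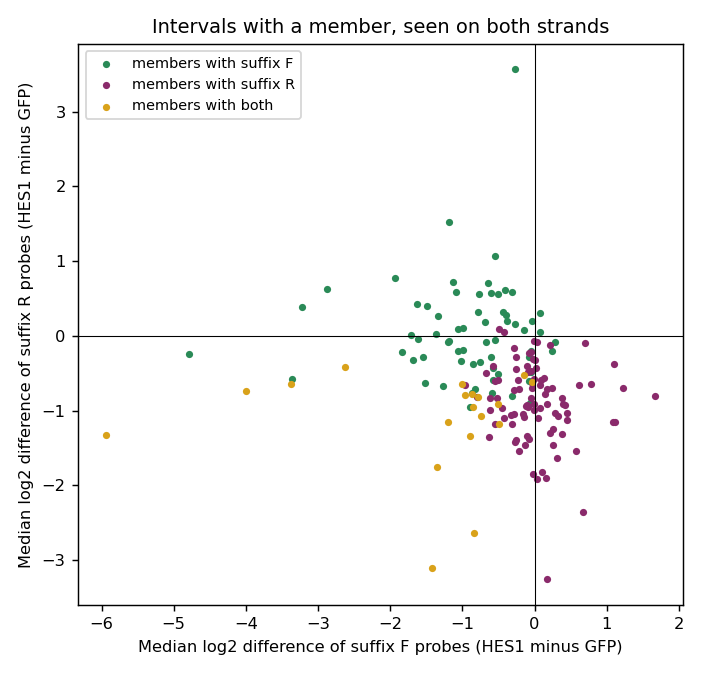
Median log2 difference (HES1 minus GFP) of the seen F probes (horizontal) and R probes (vertical) in the 171 intervals with a member that were seen with both suffixes, 1 point per interval, from measured signals without bounds. Intervals with members of 1 suffix spread along that suffix's axis with the other near 0 (median -0.02), and the 19 with members of both lie at or below 0 on both axes. This split is partly set by the sorting, since the other suffix holds no member in the first kind.

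Joined when their intervals lay at most 100 kb apart, the members formed 313 groups, of which 197 were single members, 44 were pairs and 72 were clusters of at least 3. The 72 clusters held 327 members (53.4%), where the same joining put 59.4% of the 668 higher probes and 91.5% of all seen position-named probes into groups of at least 3. A fixed gap joins more of a larger set, so the share for all 7236 seen probes is no like background for the 612 members. Of the 72, 51 spanned more than 1 interval. Intervals overlap on this array: 98 of the 399 member intervals overlapped another and 85 were nested, so part of this grouping is in the array's design. In 42 clusters all members had the same suffix (26 R and 16 F), in 7 some probe was at least 2-fold higher, and 13 held a patch member.

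The cluster with most members was chr10:66559716-66647841, where 13 of 21 seen probes from 4 intervals were members, 10 of them with suffix F. Its members' differences ran from -2.88 to -1.02. The F probes with the lowest values (65.3 and 8.85, 57.2 and 8.65, and 95.1 and 15.4) were seen on the GFP array only and were at least 1.67-, 1.47- and 2.44-fold lower. The brightest R members went from 1509 to 651 and from 1375 to 667. The locus on chromosome X described above came next, with 11 of 15.

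In 2 of the next clusters every seen probe was a member. The cluster chr5:111538420-111603075 had 9 of 9 probes, all with suffix F and all seen on both arrays, from 3 intervals of 590 to 1723 bases. Their GFP signals were 515 to 2819 and their HES1 signals 201 to 1224, with differences from -1.36 to -1.07. The cluster chr3:51784862-51891781 also had 9 of 9, with differences from -1.97 to -1.26. Its R interval chr3:51890691-51891781 went from 617 to 169, from 986 to 289 and from 825 to 271, and its R interval chr3:51804655-51805883 from 182 to 46.6, from 398 to 107 and from 184 to 58.9. Its F interval chr3:51784862-51793999 was dimmer, at 170 and 71.1 for the probe seen on both arrays. None of the probes in these clusters lay in a patch. Under normexp 4 of 9 members stayed past 2-fold in each.

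The remaining large clusters were less complete. In chr9:88333945-88465751, 9 of 15 seen probes were members, with differences from -1.33 to -1.003. In chrX:90997595-91009570, 9 of 16 were, and the lowest seen on both arrays went from 652 to 181. In chr16:89961600-90127636, 8 of 27 were, 2 of them seen on both arrays, and the median over its seen probes was -0.32. In chr1:139795171-139857204, 8 of 14 were, all with suffix F, from -1.59 to -1.01. Under normexp the members still past 2-fold numbered 1, 2, 0 and 0 in these 4, and 2 of 13 in the chromosome 10 cluster.

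**Figure D4:**
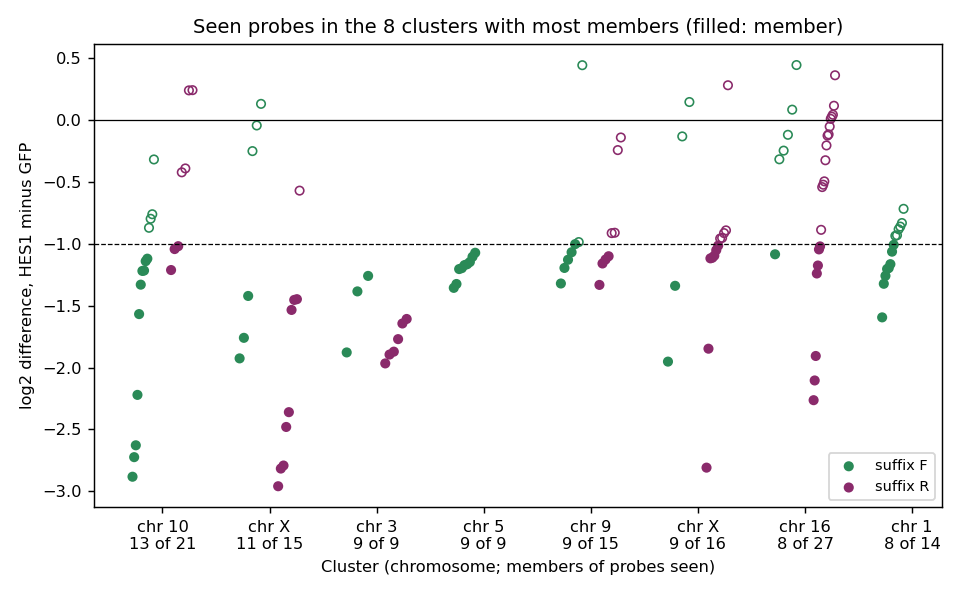
Log2 difference (HES1 minus GFP) of every seen probe in the 8 clusters with most members, F probes in green and R probes in purple, filled where the probe is a member. The dashed line is the 2-fold threshold; all 9 probes of the chromosome 3 and chromosome 5 clusters lie below it, and in the chromosome 16 cluster 8 of 27 do.

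The share of seen probes that were members differed among chromosomes. It was highest on chromosome X (52 of 268, 19.4%), chromosome 10 (53 of 285, 18.6%), chromosome 9 (38 of 278, 13.7%) and chromosome 1 (55 of 536, 10.3%), against 8.46% over all chromosomes, and lowest on chromosome 4 (5.36%) and chromosome 2 (5.65%). Without the members of the largest cluster of each, these 4 shares were 16%, 14.7%, 10.8% and 8.9%, with the other seen probes of that cluster kept. Clusters of at least 3 held 40 of the 52 members on chromosome X and 40 of the 53 on chromosome 10. They held 20 of 38 on chromosome 9 and 37 of 55 on chromosome 1, against 53.4% of all members. Chromosome X had 18 separate groups of members and chromosome 10 had 19. The median difference of all seen position-named probes was -0.15 on chromosome X and -0.20 on chromosome 10. Probes at least 2-fold higher made up 8.96% on chromosome X and 10.5% on chromosome 10, near the 9.23% over all chromosomes. Suffix R was carried by 19 of 21 members on chromosome 16, 7 of them from the cluster described above, by 22 of 27 on chromosome 11 and by 10 of 11 on chromosome 19. Among all seen probes of these chromosomes its share was 58.7%, 56.7% and 56.2%.

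**Figure D5:**
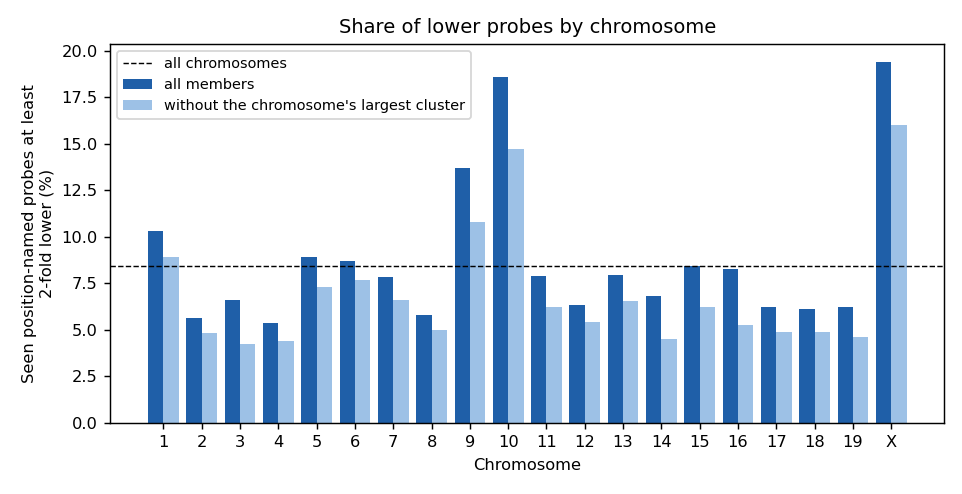
Percent of seen position-named probes that were members, by chromosome, with all members (dark bars) and without the members of the chromosome's largest cluster (light bars). The dashed line is the 8.46% over all chromosomes, and chromosomes X, 10, 9 and 1 stand above it with both kinds of bar (10.3% and 8.9% on chromosome 1). That line keeps every cluster, so it is no like reference for the light bars.

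Known long noncoding RNAs with a gene name give a setting for these unnamed intervals. Of 50 listed, 27 were on the array and 21 were seen, with a median difference of -0.08; 1 was at least 2-fold lower and 2 were higher, against 6.18% and 9.75% of all seen probes. The lower one was Mirg, a maternally expressed noncoding RNA that hosts microRNAs, at 128 and 56.4 (log2 difference -1.18, scanner error 0.35), and under normexp its difference of -0.49 was short of 2-fold. Pvt1, the noncoding neighbour of Myc, was higher at 4361 and 14707, and Morrbid, known for myeloid cell survival, at 111 and 1786. Malat1, a nuclear noncoding RNA, measured 6485 and 6156.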

How the data were processed

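Per the file headers, each 1-colour Agilent array of 1 mouse design (build mm9) was read with Agilent Feature Extraction 10.10.1.1, also named in the submitters' processing notes, and both arrays lay on 1 slide. The deposited scanner files hold an intensity per spot, background-corrected and detrended by that software, and the flags it set. The deposited series table holds the same intensity scaled by the authors to a common 75th percentile, and it gave the same 612 members. The difference was log2 of the processed signal over each array's 75th percentile across 59305 non-control spots, HES1 minus GFP; 1 position-named probe with an outlier flag was left out. No spot was saturated. No test was run on single arrays, and the number of arrays limits the precision.

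Members and gene lists were chosen with earlier results of these data known. The probes named are the 10 lowest members seen on both arrays, the 5 with the largest bounds, the 5 brightest, intervals with members of both suffixes, the 8 largest clusters and the 3 probes on each side of the threshold; the complete intervals and the intervals with opposite suffixes were chosen after their values were seen. Gene names came from a RefSeq table (GRCm38.p6) used for names only, which gave 27231 probes a symbol. Normexp (offset 50) was run on median spot signals with limma 3.58.1 in R 4.3.3; the rest used Python 3.11.15 with pandas 2.3.3. Clustering and patch marking were tested on simulated data. The patch minimum of 2 neighbours replaced 3 after both results were seen, and the tolerance of its simulated test for isolated spots was widened at that change.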

Additional observations from a re-analysis of the deposited data

How the results depend on the processing

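The 612 lower and 668 higher probes moved by over 1.5 times under normexp (89 and 207), with probes seen on both arrays only (309 and 264), with no filter on dim probes (1084 and 1505), at 1.5-fold (1500 and 1104) and at 3-fold (185 and 368); both stayed within 1.5 times under quantile, median and loess scaling, bounds, outlier spots kept and without patches, at either neighbour minimum (554 or 586 members left). The median of -0.07 turned to 0.0385 with scaling on the median and to 0.0085 with no filter. Intervals with members of both suffixes, 19, became 7 on both arrays, 79 at 1.5-fold and 4 at 3-fold; members in clusters, 327, became 171, 1048 and 56. The share of R, 59.0%, stayed between 56.5% and 60.8% under its 7 alternatives. Of 106 named members, 83 moved by more than their scanner error under normexp and 1 turned to 1.37, while 0 did under the other scalings. The normexp offset of 50 shrinks the folds of dim probes, and how much of the drop in counts it makes was not tested. No paired analysis was possible because each group holds 1 sample. Dim signal limits the members: 303 of 612 were not well above background on the HES1 array.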
